A study of Mus musculus with 20 samples.

Results

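Granul_1 is the larger of the 2 granulocyte clusters that the authors named in single-cell RNA-seq data of mouse kidneys after ischemia. Its members were taken by that name alone from the deposited cluster table, which gave 10892 of 113579 cells (9.59%) in 18 libraries and 18 clusters. Of these cells, 6566 (60.3%) came from kidneys after long ischemia, 4247 (39.0%) from kidneys after short ischemia and 79 (0.725%) from control kidneys. A second table, in which the authors clustered the same libraries together with 2 inhibitor-treated ones, has 136794 cells in 20 libraries, and its cluster Neutro_1 with 10843 cells was used for the inhibitors.

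All mice were male C57Bl/6J of 10 to 12 weeks. In the IRI short groups both renal pedicles were clamped for 23 min, in the IRI long groups for 30 min, and kidneys were taken 1, 3 or 14 d later, so that each combination of ischemia time and day gave 2 libraries. The 6 control libraries carry only the word control in the labels, which do not say whether those mice had sham surgery. In a second set of experiments mice received VX-765 (100 mg/kg), an inhibitor of caspase-1, or liproxstatin (10 mg/kg), an inhibitor of ferroptosis, by intraperitoneal injection before and every day after 30 min of ischemia, and 1 library for each inhibitor was made at 14 d. A library of mice treated with vehicle is not analysed here. Before digestion of the tissue, the mice were perfused with buffer through the heart, and red blood cells were lysed afterwards.

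Granulocytes are short-lived white blood cells made in the bone marrow, and most of those that enter injured tissue are neutrophils. They leave the blood along chemokine gradients, take up debris and microbes, and release proteases, reactive oxygen species and chromatin traps. S100a8 and S100a9 encode the subunits of calprotectin, a calcium-binding protein that fills the neutrophil cytoplasm, and serve as markers of these cells. After renal ischemia neutrophils are known as early arrivals among the infiltrating leukocytes. The tables used here give a cluster name, a treatment label and 2 UMAP coordinates for each cell, without expression values, so the name of Granul_1 was not checked against S100a8 and S100a9. What follows therefore rests on numbers of cells and on their places in the UMAP, the 2-dimensional map in which cells with like expression lie close together.

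Libraries were recognised from the shared start of their cell names (for example Scl and norm5 for control, IRF10 and IRF12 for IRI) and were assigned to groups by the labels of their cells. Each was taken as 1 mouse and as 1 replicate, and nothing in the labels says more on how the mice were grouped in surgery or sequencing. Libraries from control kidneys held 2272 to 14320 cells, those after short ischemia 2967 to 10917, and those after long ischemia 2064 to 7847. Cell barcodes divided the libraries: 5 of the 6 control libraries drew on a smaller set of barcodes than norm5, all IRI libraries and both inhibitor libraries did. Since no IRI library used the smaller set, barcode set and control cannot be told apart in those 5 libraries, and values for norm5 alone are given beside the comparisons with control. Of the Granul_1 cells, 247 (2.27%) shared their barcode with a cell of another library, against 2.40% of all cells, and 30 of them shared it with a Granul_1 cell.

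The first comparison asked whether Granul_1 cells were more frequent after ischemia than in control kidneys. They were rare in control and abundant in every IRI library: on average they made up 0.140% ± 0.166 of a control library, 10.1% ± 2.39 of an IRI short one and 17.8% ± 4.51 of an IRI long one (SD, n = 6 each). The means of IRI short and IRI long were 72.0 times and 127 times that of control, and 225 times and 395 times the value of norm5, which rests on 3 cells. By size Granul_1 ranked between 12 and 16 of the 18 clusters in the control libraries, between 2 and 8 in IRI short and between 1 and 3 in IRI long.

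Among the control libraries, Scl held 48 Granul_1 cells (0.335%), norm2 held 24 (0.363%), norm4 held 4 (0.0986%) and norm5 held 3 (0.0450%). In norm1 none was found among 3949 cells, which allows a fraction of up to 0.0760%, and in norm3 none among 2272 cells, which allows up to 0.132%. Thus 2 of the 6 control libraries gave most of the 79 control cells, and the other 4 held 7 together.

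In IRI short the fractions were 12.4% and 10.5% at 1 d, 13.1% and 7.31% at 3 d, and 9.85% and 7.55% at 14 d. In IRI long they were 22.7% and 18.3% at 1 d, 12.9% and 12.4% at 3 d, and 22.8% and 17.5% at 14 d. The lowest IRI value lay far above the highest control value, and at 1 d and 14 d the pair of IRI long values exceeded the pair of IRI short values, whereas at 3 d the groups overlapped. The exact 95% binomial (Clopper-Pearson) intervals cover counting error only. In the smallest IRI library, IRF7, the interval ran from 11.0 to 13.9% and took in the 12.9% of IRF4, the other library of its group. In every other IRI group the intervals of the libraries did not overlap. At 14 d in IRI long they were 21.8 to 23.8% for IRF12 and 16.6 to 18.4% for IRF9.

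**Figure D1:**
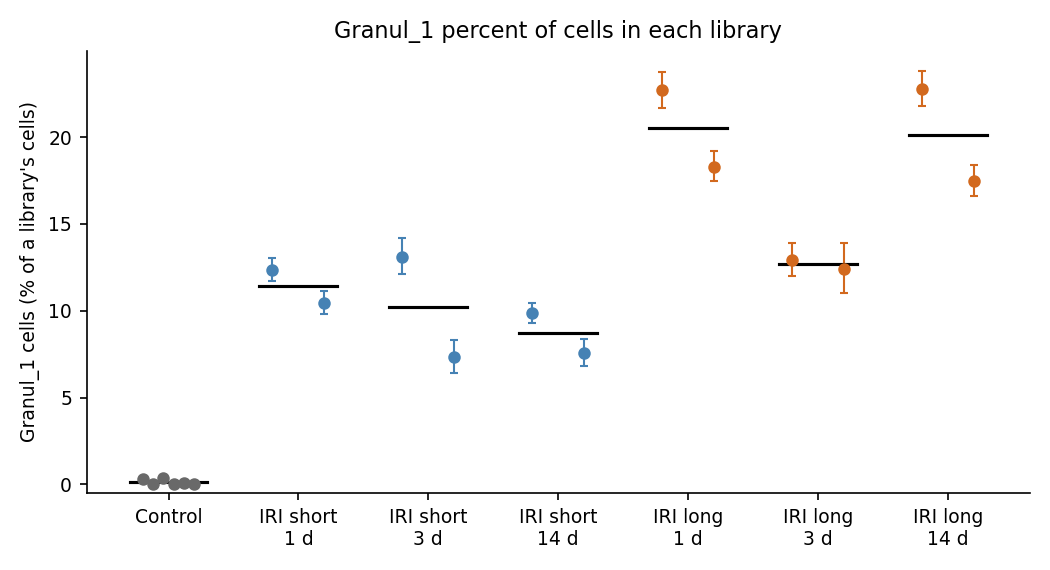
Granul_1 cells as percent of all cells of a library (vertical axis) in the 7 groups without inhibitor (horizontal axis). Points are libraries with exact 95% binomial intervals, and horizontal lines are group means: the control mean is 0.140%, and the IRI long means at 1 d and 14 d are 20.5% and 20.1%, above the 11.4% and 8.70% of IRI short.

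By a two-sided exact permutation test over libraries, the increase was 9.97 percentage points in IRI short (adjusted p = 0.00325) and 17.6 points in IRI long (adjusted p = 0.00325), the smallest value that 6 against 6 libraries allow (unadjusted p = 0.00216 by exact permutation). In limma, fitted on the logit of every cluster's fraction with 0.5 cells added, Granul_1 rose by 4.96 (SE 0.47, adjusted p = 2.57e-08) in IRI short and by 5.61 (SE 0.47, adjusted p = 3.81e-09) in IRI long. These were the second largest changes among the 18 clusters in both comparisons. Most clusters passed the same threshold, 66.7% of them in IRI short and 83.3% in IRI long. Against norm5 alone, with 0.0450% Granul_1 cells, the differences were 10.1 and 17.7 points. A fraction can rise because granulocytes were added or because other cells were lost, which these data cannot tell apart.

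Granul_1 cells were also given as percent of Granul_1 and non-immune cells together. Non-immune cells are those outside the 8 immune clusters, that is tubular, endothelial and stromal cells. This percent does not settle the question, since loss of the non-immune cells alone would raise it. The clusters LOH, DCT, IC and PC were lower in IRI long than in IRI short (limma adjusted p from 0.00339 to 0.0286). In IRI short libraries the percent was 17.1% and 14.4% at 1 d, 26.0% and 13.5% at 3 d, and 14.5% and 15.1% at 14 d. In IRI long it was 36.5% and 23.9% at 1 d, 31.8% and 29.3% at 3 d, and 54.0% and 45.5% at 14 d. On this scale IRI long lay above IRI short without overlap at all 3 time points, with a ratio of means of 1.92 at 1 d, 1.54 at 3 d and 3.36 at 14 d.

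The second comparison asked whether Granul_1 was more frequent after long than after short ischemia. The mean fraction was 1.76 times as high in IRI long, a difference of 7.66 percentage points (two-sided exact permutation within days, adjusted p = 0.0278, in a design whose smallest possible p is 0.00926). As percent of Granul_1 and non-immune cells together the difference was 20.0 percentage points (exact permutation, adjusted p = 0.00926), a scale added after the data were seen. Against immune cells the difference was smaller and did not pass the threshold (6.28 percentage points, exact permutation, adjusted p = 0.0648). Granul_1 made up 21.6% ± 7.18 of the immune cells after short and 27.9% ± 10.8 after long ischemia (SD, n = 6 each), and those ranges overlapped.

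On the logit scale the same difference was 0.65 (95% interval −0.33 to 1.63) and did not pass the threshold in the fit of all 18 libraries (limma adjusted p = 0.362). In that comparison 27.8% of the clusters were called. The fit shares 1 estimate of the spread with the control libraries. In fits added after the data were seen, the difference was again 0.65, with an SE of 0.31 without the 2 control libraries that hold no Granul_1 cell (limma adjusted p = 0.155) and an SE of 0.17 with the 12 IRI libraries alone (limma adjusted p = 0.00912). With norm5 as the only control library this contrast is the same fit again, because 1 control library adds nothing to the estimate of the spread. It is no further support.

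Day by day, the logit difference of IRI long from IRI short came to 0.69 at 1 d (limma adjusted p = 0.743), where 5.56% of the clusters were called. At 3 d it was 0.28 (limma adjusted p = 0.938), where limma called 0% of the clusters and 3 of 18 had an unadjusted p under 0.05. At 14 d it was 0.97 (limma adjusted p = 0.489), where 33.3% were called. With the IRI libraries alone the difference passed the threshold at 14 d (limma adjusted p = 0.0194) but not at 1 d (limma adjusted p = 0.148) or 3 d (limma adjusted p = 0.645). The differences at the 3 time points were thus all positive, with the smallest at 3 d, where leaving out the library IRF3 turned the sign (−0.04).

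With time, no change of the Granul_1 fraction of all cells between 1 d and 14 d passed the threshold. In IRI short the mean went from 11.4% ± 1.33 at 1 d through 10.2% ± 4.10 at 3 d to 8.70% ± 1.63 at 14 d (SD, n = 2 each), a logit change from 1 d to 14 d of −0.31 (95% interval −2.01 to 1.39, limma adjusted p = 0.851). Of all clusters 5.56% were called there. In IRI long it went from 20.5% ± 3.11 through 12.7% ± 0.379 to 20.1% ± 3.74 (SD, n = 2 each), a change of −0.03 (95% interval −1.72 to 1.67, limma adjusted p = 0.975). In IRI long 33.3% of the clusters were called, and the change of Granul_1 was the smallest of all 18. The intervals are wide, and the sign of the IRI long change turned under 4 of its 29 alternatives. On other denominators the IRI long values moved apart. The mean share of immune cells went from 40.7% at 1 d through 17.8% at 3 d to 25.2% at 14 d. The mean percent of Granul_1 and non-immune cells together went from 30.2% through 30.5% to 49.7%. On neither denominator did the groups of 1 d and 14 d overlap, and these changes over time were not tested. The difference between both logit changes was 0.28 (limma adjusted p = 0.856), with 11.1% of the clusters called.

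The neighbouring granulocyte cluster, Granul_2, holds 6864 cells, and the share of Granul_1 among both clusters does not depend on the other cell types. In IRI short Granul_1 made up 74.4% and 76.7% of the granulocytes at 1 d, 65.7% and 64.0% at 3 d, and 87.0% and 52.9% at 14 d. In IRI long the shares were 69.3% and 80.5% at 1 d, 54.8% and 63.2% at 3 d, and 44.1% and 43.3% at 14 d. Granul_1 was thus the larger cluster in every IRI library except both IRI long libraries at 14 d, where its own fraction of all cells was among the highest. At 3 d and 14 d the IRI long shares were below those of IRI short without overlap, and at 1 d they lay on either side of them.

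**Figure D2:**
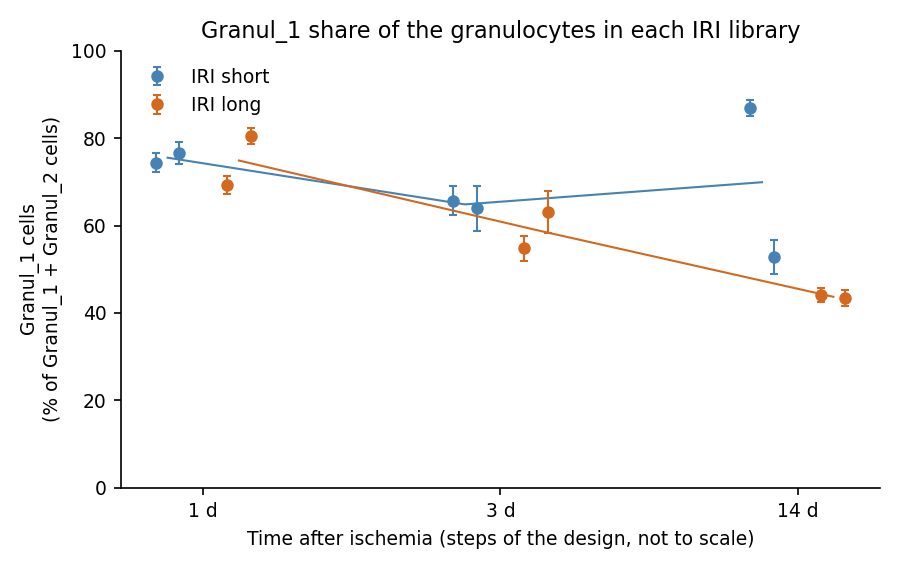
Granul_1 cells as percent of the Granul_1 and Granul_2 cells of a library (vertical axis) at 1, 3 and 14 d (horizontal axis, steps not to scale). Points are libraries with exact 95% binomial intervals and lines join group means: IRI long goes from 74.9% at 1 d to 43.7% at 14 d, while the 2 IRI short libraries at 14 d lie at 87.0% and 52.9%.

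With all libraries, neither contrast of this share passed the threshold. IRI long was lower than IRI short by a mean of 10.9 percentage points (−10.9, two-sided exact permutation within days, adjusted p = 0.108), and without the IRI long library IRF5 the difference was −12.8 points and passed it (exact permutation, adjusted p = 0.0463). Without the IRI short library IRF10 it was −5.22 points and without IRF8 −16.6 points (exact permutation, adjusted p = 0.170 and 0.162). The slope over the order 1 d, 3 d, 14 d was −9.20 points per step over both ischemia times (exact permutation of 8100 ways, p = 0.0481, adjusted p = 0.108 over 5 tests). The missed threshold depended on the IRI short library IRF10 at 14 d: without it the slope was −13.8 points per step (exact permutation, adjusted p = 0.00185). IRF10 was also the IRI library with the most cells (10917), and held only 161 Granul_2 cells beside its 1075 Granul_1 cells. In control libraries with granulocytes Granul_1 made up 48 of 48 in Scl, 24 of 25 in norm2, 4 of 7 in norm4 and 3 of 5 in norm5.

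Across the 12 IRI libraries, the Granul_1 fraction was compared with the share of each of the other 17 clusters among the cells outside Granul_1, both as logits. Granul_2 had the highest correlation (Pearson r = 0.68, permutation p = 0.0154, adjusted p = 0.144; Spearman rho = 0.76, permutation p = 0.00540, adjusted p = 0.0918). It was followed by Mono_1, a monocyte cluster (r = 0.38, rho = 0.36, permutation adjusted p = 0.546 and 0.608), and by Endo, endothelial cells (r = 0.19, rho = 0.18, permutation adjusted p = 0.715 and 0.855).

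The lowest correlations were those of IC, the acid-base regulating intercalated cells of the collecting duct (r = −0.67, rho = −0.60, permutation adjusted p = 0.144 and 0.242), and of PT S1, the first segment of the proximal tubule (r = −0.60, rho = −0.67, permutation adjusted p = 0.221 and 0.177). The third was that of PC, the principal cells of the collecting duct (r = −0.49, rho = −0.49, permutation adjusted p = 0.449 and 0.389). Of the 17 clusters 3 had an unadjusted permutation p under 0.05 and 0 an adjusted one. Without the 2 libraries farthest from the median Granul_1 fraction (IRF12 and IRF1), r was 0.50 for Granul_2, −0.53 for IC and −0.62 for PT S1. As deviations from the means of the 6 groups, an analysis added after the data were seen, r was 0.25 for Granul_2, 0.12 for Mono_1, −0.22 for Endo, −0.33 for IC, −0.50 for PT S1 and −0.74 for PC. PC had the lowest p there (exact permutation within groups, 64 ways, p = 0.0313, adjusted p = 0.531). That is the smallest p these permutations allow, so no cluster on its own could pass the threshold after adjustment. They therefore cannot decide whether a correlation holds within groups.

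**Figure D3:**
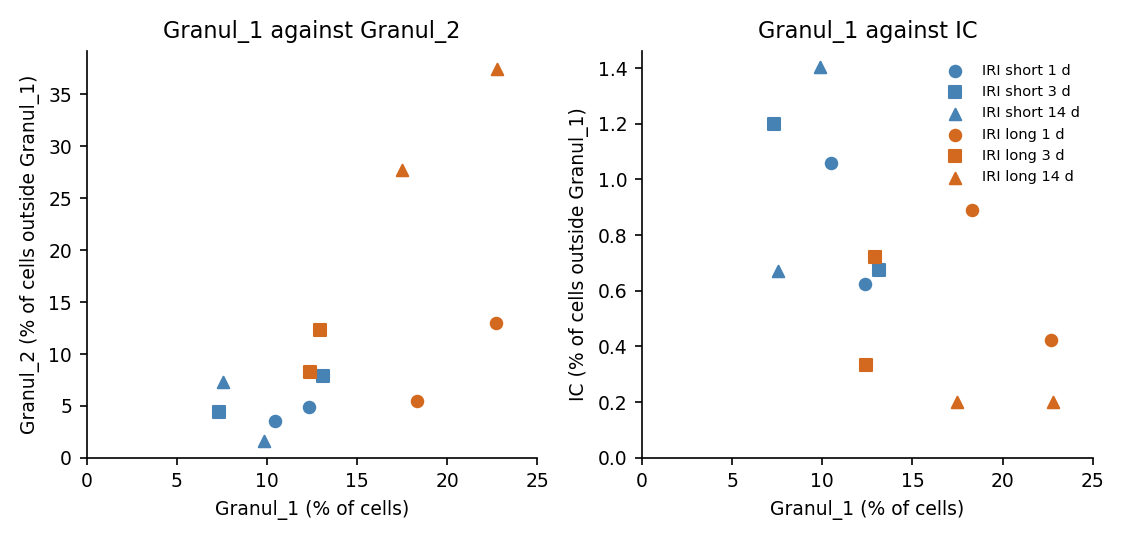
Granul_1 as percent of cells (horizontal axes) against Granul_2 (left) and IC (right) as percent of the cells outside Granul_1 (vertical axes) in the 12 IRI libraries, coloured by ischemia time and shaped by day. The IRI long libraries at 14 d hold 37.4% and 27.7% Granul_2, and they have the lowest IC values, 0.202% and 0.201%.

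In the UMAP Granul_1 formed a separate island. Of the 30 nearest neighbours of a Granul_1 cell, 99.7% on average were Granul_1 cells, no other cluster gave as much as 1%, and only 0.0940% were in Granul_2. The nearest cluster centre was nevertheless that of Granul_2, at a distance of 6.92 UMAP units, before Podo at 8.72 and Myofib at 8.83. Of all members 10838 (99.5%) had at least 90% of their neighbours within the cluster, and 25 (0.230%) had fewer than 50%. These 25 cells were spread over 12 libraries with at most 5 in one.

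Cells of both ischemia times filled the same region of the island. The position of each cell was read on the line from the centre of Granul_1 (0%) to that of Granul_2 (100%). Each centre is the mean of the median places of the IRI libraries, so library medians lie around 0% by construction. In IRI short the median positions of the libraries were 2.39% and 2.15% at 1 d, −2.13% and −2.07% at 3 d, and 0.648% and −2.95% at 14 d. In IRI long they were 1.20% and 1.58% at 1 d, −0.689% and −2.73% at 3 d, and −0.650% and 1.29% at 14 d. All 12 medians lay within a few percent of the centre that they define, those at 1 d above it and those at 3 d below it in this map. In the map of the second clustering, on the line from Neutro_1 to Neutro_2, 3 of the 4 libraries at 3 d lay above the centre (0.375%, 1.37% and 0.0748%) and 1 below it (−1.86%).

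Between the ischemia times the mean position differed by 0.328 percentage points (two-sided exact permutation within days, adjusted p = 0.704) and the slope over days was −1.12 points per step (exact permutation, adjusted p = 0.163). Neither passed the threshold, and the slope was −0.131 points in the second map (exact permutation, adjusted p = 0.800) and −0.255 with mean in place of median positions (exact permutation, adjusted p = 0.676). Only 110 Granul_1 cells (1.01%) lay beyond 50% of the way, and 74 (0.679%) had any neighbour in Granul_2. LIGER, the method by which the authors joined the libraries, aligns them with one another, and positions without that alignment are not analysed here.

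**Figure D4:**
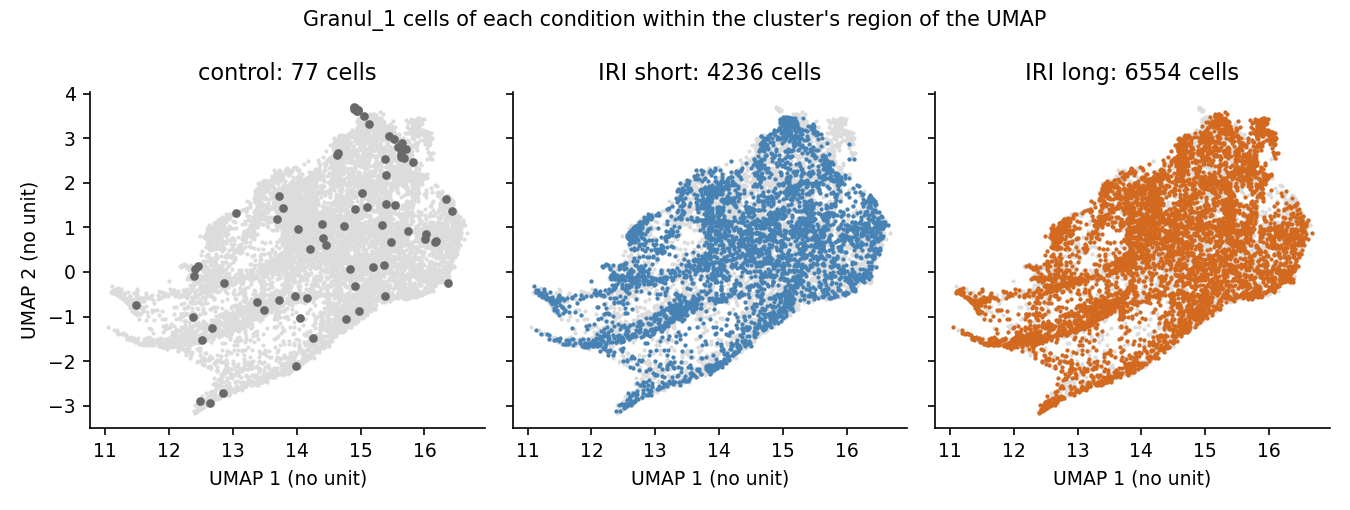
Granul_1 cells in the UMAP of the first annotation (both axes without unit), coloured by condition over all Granul_1 cells in grey, with 25 of 10892 cells outside the window not drawn. The 4236 IRI short and 6554 IRI long cells drawn cover the same island, and the 77 control cells are scattered over it with a small group at its upper edge.

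All 7 Granul_1 cells of norm4 and norm5 lay close together at one edge of the island, at median positions of −16.7% and −17.2%. A spot was drawn around the median place of these same 7 cells, with a radius of 0.3 UMAP units that took in all of them. Control cells counted in the spot thus include the 7 that defined it. This spot held 88 members (0.808%) in all, 60 from IRI short, 17 from IRI long and 11 from control. The other 68 of the 79 control cells lay outside it, 44 of the 48 of Scl and all 24 of norm2. Whether these cells differ in expression from the rest of the cluster was not tested.

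Most members kept a like name when the authors clustered the data a second time. Of the 10892 Granul_1 cells, 10494 (96.3%) were in Neutro_1, 323 (2.97%) in Neutro_2, and no other cluster held 1%. In IRI short the libraries kept 96.2% and 98.6% in Neutro_1 at 1 d, 98.7% and 99.5% at 3 d, and 98.3% and 95.3% at 14 d. In IRI long they kept 95.0% and 97.1% at 1 d, 97.1% and 91.0% at 3 d, and 96.5% and 93.0% at 14 d. The mean was lower in IRI long by 2.82 percentage points (−2.82, two-sided exact permutation within days, p = 0.0463, adjusted p = 0.108), which does not pass the threshold.

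The cells renamed Neutro_2 lay at a median position of 39.4% toward Granul_2, whereas those kept in Neutro_1 lay at −0.188%. They were thus on the side of the island that faces the other granulocyte cluster. Their share ranged from 0.461% of the members in IRF3 to 8.20% in IRF7. A further 21 cells were named Fibro in the second table, at a median position of 124% and with 56.2% of their neighbours in Granul_1, and 61.9% of them had fewer than 50% of their neighbours there.

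In the other direction, 98.6% of Neutro_1 cells of the whole second table were Granul_1 cells in the first, counting the inhibitor libraries out, and PT S3, cells of the last segment of the proximal tubule, gave 69 (0.648%). Of these 69, 67 were in the single library IRF12, where 95.5% of Neutro_1 came from Granul_1, against 98.8 to 99.8% in the other 5 IRI long libraries. With Neutro_1 in place of Granul_1 the fractions were close to those above: control kidneys had 0.163% ± 0.146, IRI short ones 9.98% ± 2.39 and IRI long ones 17.2% ± 4.68 (SD, n = 6 each). In that table norm1 and norm3 each held 2 Neutro_1 cells.

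The last comparison asked how frequent these cells were when VX-765 or liproxstatin was given with long ischemia. In the VX-765 library 150 of 10610 cells were in Neutro_1, 1.41% (exact 95% binomial interval 1.20 to 1.66%). In the liproxstatin library 48 of 12605 cells were, 0.381% (0.281 to 0.505%). Both IRI long libraries at 14 d without inhibitor held far more, 1623 cells (23.0%) and 1177 cells (16.3%), and the 6 control libraries held 0.0450 to 0.363%. The liproxstatin library thus lay just above the highest control library, whose interval (0.233 to 0.540%) overlaps its own, and the VX-765 library lay between control and IRI long.

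**Figure D5:**
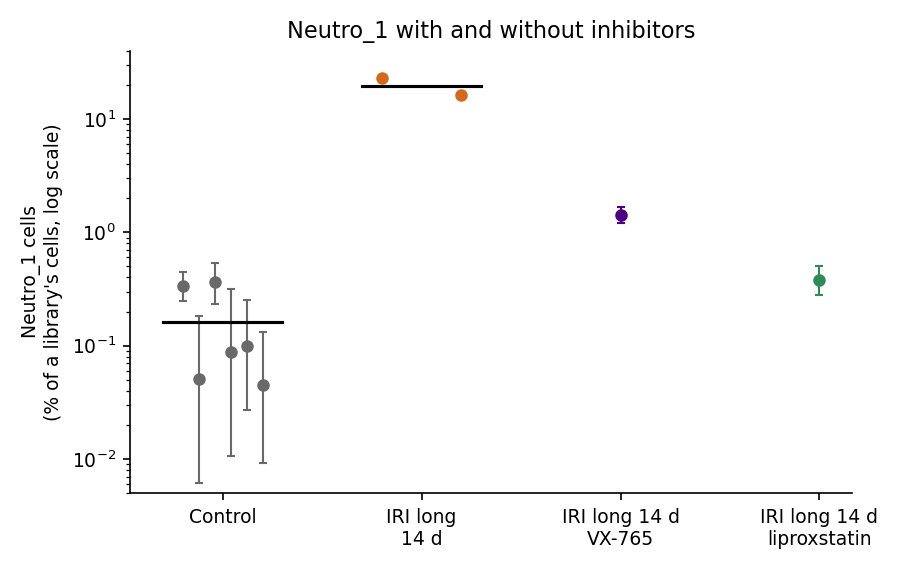
Neutro_1 cells as percent of all cells of a library on a log axis (vertical) in control, IRI long 14 d and both inhibitor libraries (horizontal). Points are libraries with exact 95% binomial intervals and lines are group means: 0.163% in control and 19.7% in IRI long 14 d, beside 1.41% with VX-765 and 0.381% with liproxstatin.

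Each inhibitor has 1 library here, so the intervals cover counting error only and no test of the treatment is possible. By the methods the inhibitor-treated mice belong to a second set of experiments, injected with an agent in an oil and solvent carrier, while the IRI long mice without inhibitor are described with the first set, so inhibitor and experiment cannot be told apart. The difference between both inhibitors has no replicate either. Among the granulocytes of these libraries, Neutro_1 made up 150 of 285 (52.6%) with VX-765 and 48 of 80 (60.0%) with liproxstatin, against 41.4% and 40.4% in IRI long at 14 d. Among immune cells it made up 12.0% and 7.42%, against 30.6% and 25.2%. Immune cells here are those of Neutro_1, Neutro_2, Macro, T cell, B cell and NK. No cluster of the second clustering bears a monocyte name, so these shares are not on the scale used above. In the first clustering Granul_1 made up 28.3% of the immune cells of IRF12 and 22.1% of those of IRF9, the same IRI long libraries at 14 d. In the UMAP that goes with Neutro_1, 98.7% of the neighbours of the VX-765 cells and 95.3% of those of the liproxstatin cells were in Neutro_1. Their median positions were 4.47% and 1.33% toward Neutro_2, so the Neutro_1 cells of both inhibitor libraries lay within the same island.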

How the data were processed

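The methods name 10X 3′ v3 libraries for the kidneys of these male mice and no other kit. They do not account for the smaller barcode set of 5 control libraries. Whether those libraries were made with the same kit was not tested. According to the methods, the authors aligned reads to mm10 with Cell Ranger, kept cells within limits on gene number and mitochondrial reads, discarded doublets found by DoubletFinder, integrated libraries with LIGER, clustered with the Louvain algorithm and named clusters by hand, without correction for ambient RNA. The deposited tables hold names and coordinates for each cell, and no counts of transcripts, so depth is the number of cells. How the second table was named is not given in the sources used here.

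Fractions per library were compared with limma 3.58.1 in R 4.3.3 (logit, 0.5 cells added, 7 group means, Benjamini-Hochberg over 18 clusters, threshold 0.05, checked on simulated data) and with two-sided exact permutation tests, adjusted over 3 tests of the percentages and over 5 of the share, position and naming. Correlations used 100000 permutations and adjustment over 17 clusters. A count of 0 allows up to 3 cells. Neighbours were the 30 nearest cells in the UMAP. P-values set a result against the spread between libraries. Correlations not taken as deviations from group means also hold the differences between groups. The cluster, the lists and the tests were chosen with earlier results of these data known. Named clusters were both granulocyte clusters, those sharing at least 1% of cells or neighbours with Granul_1, and the 3 highest and 3 lowest correlations. Podo, Myofib, PT S3 and Fibro were named after their values were seen. Python 3.11.15, scipy 1.17.1, numpy 2.4.6, scikit-learn 1.9.0, pandas 2.3.3 and matplotlib 3.10.9 were used. The alternatives were other scales and denominators, the second table, other pseudocounts (0.1 cells), the barcode set as a term, norm5 as the only control, no control libraries or only those with Granul_1 cells, permutation without days, and leaving out each library.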

Additional observations from a re-analysis of the deposited data

Results flagged for a closer look

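Values far from the rest of their group were looked for in 18 sets of 4 to 6 libraries with Dixon's criterion, of which chance alone marks about 1 in 20. The control library norm4 stood apart in the share of Granul_1 cells kept in Neutro_1, 75.0% against 95.8 to 100% in the other control libraries with members, and by the same cells in the share of Neutro_1 from Granul_1, also 75.0%. That library has 4 Granul_1 cells, of which 3 were kept. The IRI long library IRF12 stood apart in the share of its Neutro_1 cells that come from Granul_1, 95.5% against 98.8 to 99.8%, and 67 of its Neutro_1 cells were PT S3 in the first table.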

How the results depend on the processing

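Of 405 alternative values, 386 kept their direction and side of the threshold. Some of them could not differ, so the count overstates how many separate checks were made. A filter for clusters with at least 10 cells in 2 libraries kept all 18 and repeats the main fit. All Granul_1 cells as denominator of those placed in Neutro_1 repeats the main value. For contrasts among IRI groups, norm5 as the only control repeats the IRI libraries alone. In every alternative Granul_1 stayed above control in both ischemia times. IRI long against IRI short in limma passed the threshold with the arcsine square root (0.11 over all days, 0.12 at 1 d and 0.17 at 14 d, on that scale). It also passed with IRI libraries alone (0.65 over all days and 0.97 at 14 d), and norm5 as the only control repeats that fit. Against immune cells the permutation result was lost (6.28 points). The slope of the share of granulocytes passed without IRF10 and IRF8 (−14.6 points per step). The change from 1 d to 14 d in IRI long turned positive with the centred log-ratio (0.39) and without Granul_2 cells (0.27), and its difference from IRI short turned negative among immune cells (−0.067). The cause was not tested.

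Leaving out 1 library gave −0.19 to 0.14 for the change from 1 d to 14 d in IRI long, positive without IRF9 (0.14) and without IRF1 (0.11). It gave −0.040 to 0.61 for IRI long against IRI short at 3 d, negative without IRF3 (−0.040). The position toward Granul_2 ranged from −0.228 to 0.923 points, negative without IRF8 (−0.228) and without IRF4 (−0.0139). The share of granulocytes differed by −16.6 to −5.22 points between IRI long and IRI short and passed the threshold without IRF5, and its slope was −13.8 to −7.06 points per step.

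No paired analysis was possible because the libraries carry no replicate numbers that match the labels.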
